A study of Ovis aries with 16 samples.

Results

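The miRNAs described here are oar-miR-21 and oar-miR-221, the 2 listed members of a group of 3 named sheep miRNAs (oar-miR-21, oar-miR-221 and oar-miR-222) that was chosen by name for known roles in spermatogonia. They were 2 of 271 miRNAs listed in the testis libraries, of which 103 were known sheep miRNAs and 168 were predicted by the authors. The third name, oar-miR-222, was not analysed here. In its place, the predicted miRNA numbered 26, which the study pairs with miR-222-3p of another mammal, was followed beside the members for comparison and is called candidate-miR-26. Other predicted miRNAs are likewise called candidate-miR with the number the authors gave them.

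Spermatogonia are the germ cells at the base of the seminiferous tubule that either renew themselves or enter differentiation. miR-21 is abundant in cultures enriched for spermatogonial stem cells and is known for supporting their survival, and it is also expressed in many somatic cells. miR-221 and miR-222 are related miRNAs with the same seed, cut in mammals from a shared primary transcript, and they repress KIT, the receptor that spermatogonia acquire when they differentiate. In the RefSeq annotation of the sheep assembly ARS-UI_Ramb_v3.0, which is not the build the authors used, the gene MIR21 lay on chromosome 11 inside the span of the protein-coding gene VMP1, and MIR221 lay on chromosome X inside the span of the long non-coding RNA LOC105605445.

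The libraries came from 16 sexually mature Merino males that were 24 months old on entry and were fed for 65 days either to gain 10% of body mass (well-fed, n = 8) or to lose 10% of it (underfed, n = 8). Total RNA from whole tissue of the right testis gave 1 small RNA library per male. The males were separate animals, and spermatogonia were not isolated, so in this bulk tissue fewer cells of a type and less RNA per cell cannot be told apart. Values are CPM (reads per 1000000) within the miRNA class of each library, so a rise in 1 abundant miRNA lowers the CPM of the rest. The deposited values corresponded to 17163 to 503916 miRNA reads in well-fed and 27797 to 1058985 in underfed libraries. Of the 16 libraries, 13 held over 100000 miRNA reads and 3 (well-fed 5, underfed 6 and underfed 8) held fewer. A floor of 3 reads was worth 2.83 CPM in the deepest and 174.8 CPM in the shallowest library.

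oar-miR-21 was an abundant miRNA of the testis in both diets. Its level in the well-fed males was lowest at 4704 CPM, had a median of 6047 CPM and reached 11544 CPM, with a mean of 6695 ± 2145 CPM (SD, n = 8). In the underfed males its lowest, median and highest levels were 2045, 4872 and 8200 CPM, with a mean of 5070 ± 2048 CPM (SD, n = 8). The diets overlapped: 6 of 8 underfed males lay below the well-fed median, 4 lay below the lowest well-fed male, and none lay above the highest. This miRNA made up 0.67% of the miRNA reads of well-fed males and 0.507% of those of underfed males on average. By mean level it ranked 26th of the 271 miRNAs in well-fed and 29th in underfed males, and within single libraries its rank ran from 15 to 45.

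oar-miR-221 was much less abundant than oar-miR-21. Its lowest, median and highest levels were 603, 732 and 956 CPM in the well-fed males, with a mean of 731.8 ± 117.4 CPM (SD, n = 8). In the underfed males they were 319, 563 and 885 CPM, with a mean of 588.8 ± 169.2 CPM (SD, n = 8). On the deposited CPM, 6 of the 8 underfed males lay below the lowest well-fed male, while underfed 1 and underfed 6 lay within the well-fed range. The lowest value of all, in underfed 8, came from a shallow library and rested on 16 reads. It ranked 74th of the miRNAs in well-fed and 72nd in underfed males.

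candidate-miR-26, the predicted miRNA paired with miR-222, was the least abundant of the 3. Its lowest, median and highest levels were 230, 271 and 440 CPM in the well-fed males, with a mean of 287.5 ± 69.4 CPM (SD, n = 8). In the underfed males they were 99.8, 169.6 and 221.3 CPM, with a mean of 163.3 ± 38.1 CPM (SD, n = 8). On the deposited CPM the diets did not overlap, all 8 underfed males lying below all 8 well-fed males. This was so for 5 of the 244 miRNAs tested (2.05%) in that direction and for none in the other. The counts behind it were small in the shallow libraries: in well-fed 5 it rested on 4 reads, whose 95% Wilson interval ran from 90.6 to 599 CPM, and in underfed 6 and underfed 8 on 5 reads each. Such intervals cover counting error only, since reads from PCR are not independent molecules.

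**Figure D1:**
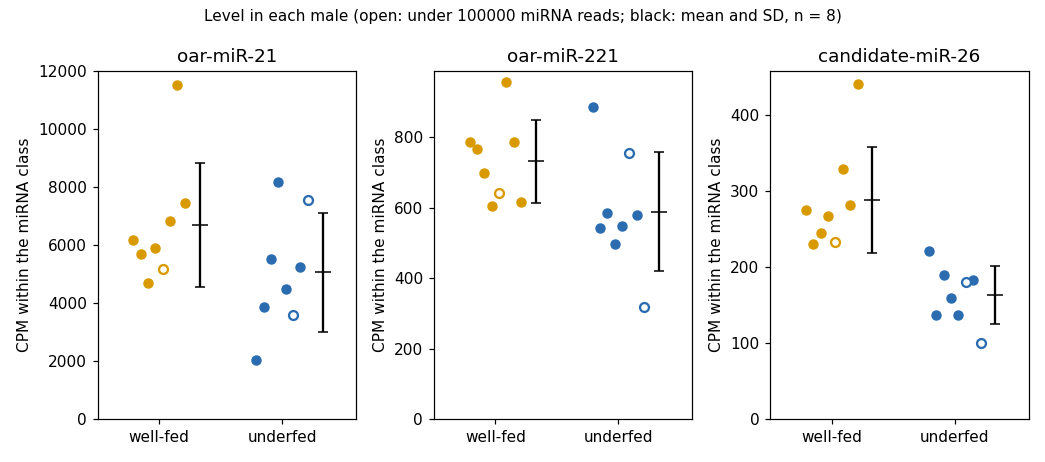
Level of oar-miR-21, oar-miR-221 and candidate-miR-26 in each male, in CPM within the miRNA class (vertical axes, from 0), for well-fed and underfed males; each point is 1 library, open points are the 3 libraries under 100000 miRNA reads, and the black bars are the mean and SD (n = 8). The diets overlap for oar-miR-21 and oar-miR-221 and do not overlap for candidate-miR-26, before any scaling between libraries.

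The order of the levels was the same in every male: oar-miR-21 was above oar-miR-221 and oar-miR-221 above candidate-miR-26 in all 16 libraries. Adapter ligation differs between sequences, so an order of reads is not by itself an order of molecules. The spread between males on the same diet was also described. For this the log2 levels were first scaled between libraries by TMM, which is explained below. The SD of the scaled log2 level within diets, averaged over both, was 0.64 for oar-miR-21, and 30 of 126 miRNAs with a mean of at least 100 CPM had a larger one. It was 0.39 for oar-miR-221 and 0.38 for candidate-miR-26, below the median of 0.47 over those miRNAs. The spread of oar-miR-21 rested on underfed 1: on the deposited CPM the highest underfed male stood at 4.01 times the lowest, and at 2.28 times without underfed 1. As an alternative chosen after the data were seen, leaving out underfed 1 gave spreads of 0.43, 0.41 and 0.40 for oar-miR-21, oar-miR-221 and candidate-miR-26, beside a median of 0.43 over the 126 miRNAs.

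The question of the study was whether underfeeding changes testicular small RNAs, and it was asked of the members in a limma fit over all 244 tested miRNAs. Libraries were scaled by TMM (trimmed mean of M-values), which removes a shift shared by most miRNAs. DE (differential expression) required a Benjamini-Hochberg FDR under 0.05 and an FC, the underfed to well-fed ratio of mean CPM, under 0.67 or over 1.5. Neither member was DE, beside 8 of the 244 miRNAs (3.28%), and neither had an unadjusted p under 0.05, beside 63 of the 244 (25.8%). The log2 fold change of oar-miR-21, underfed minus well-fed, was 0.01 (SE 0.29, 95% interval -0.58 to 0.61, limma FDR 0.972). That of oar-miR-221 was 0.12 (SE 0.21, 95% interval -0.32 to 0.57, limma FDR 0.723). These intervals do not show that the levels were equal in the diets. candidate-miR-26 had a log2 fold change of -0.34 (SE 0.25, 95% interval -0.86 to 0.17, limma FDR 0.388) and was not DE either.

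The members' values moved with the scaling. After TMM the groups overlapped for all 3: the scaled levels of oar-miR-21 had a well-fed median of 5366 CPM and an underfed median of 6282 CPM, for oar-miR-221 these medians were 589 and 721 CPM, and for candidate-miR-26 they were 232 and 195.6 CPM. The underfed males below the lowest well-fed male then numbered 1 for oar-miR-21, 1 for oar-miR-221 and 3 for candidate-miR-26. For oar-miR-221, 1 underfed male lay above the highest well-fed male. The factors behind this were 1.08 to 1.39 in the well-fed males and 0.698 to 1.26 in the underfed males, so a scaled level is lower than the deposited CPM in all well-fed libraries and higher in 6 of 8 underfed ones. Without TMM the log2 fold change of oar-miR-21 was -0.46 (limma FDR 0.196) and that of oar-miR-221 was -0.35 (limma FDR 0.243). candidate-miR-26 had -0.82 without TMM (limma FDR 0.0279, FC 0.568) and was then among the 36 miRNAs (14.8%) that were DE and lower in underfed males. When miRNA and piRNA reads were pooled as 1 library, the 3 log2 fold changes were 0.97 (limma FDR 0.0800), 1.07 (limma FDR 0.0128) and 0.60 (limma FDR 0.170). There, 89 of 210 tested miRNAs (42.4%) were higher in underfed males at an FDR under 0.05, oar-miR-221 among them.

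These scalings shift all miRNAs of a library alike, so the position of a miRNA relative to the rest is nearly fixed between them by construction. Over all tested miRNAs the log2 fold change had a median of -0.08 with TMM, -0.51 without it and 0.89 in the joint fit. Relative to that median, oar-miR-21 stood 0.04 to 0.09 and oar-miR-221 0.16 to 0.20 higher on the log2 scale, and candidate-miR-26 stood 0.27 to 0.31 lower, in all 3 scalings. Where the libraries changed, this position moved: oar-miR-21 stood at -0.047 from the median in the 13 deeper libraries, and oar-miR-221 at -0.025 from it without underfed 6.

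**Figure D2:**
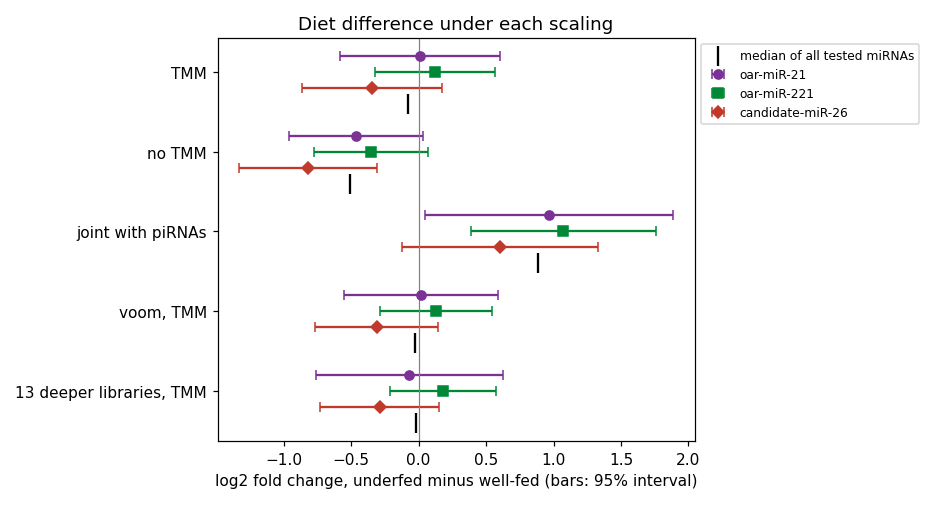
log2 fold change (horizontal axis, underfed minus well-fed) of oar-miR-21, oar-miR-221 and candidate-miR-26 in 5 fits, with 95% intervals from limma as bars and the median of all tested miRNAs as a black tick. The 3 miRNAs shift together with the median between scalings, candidate-miR-26 lying below the tick and oar-miR-221 above it in each fit.

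A ratio of 2 miRNAs within a library does not depend on TMM or on the class total, so the members were also compared as ratios. The ratio of oar-miR-221 to candidate-miR-26 was lowest at 1.40, had a median of 2.82 and reached 3.33 in the well-fed males. In the underfed males its lowest, median and highest values were 3.08, 3.58 and 4.2. All 8 underfed males lay above the well-fed median and 4 of them above the highest well-fed male. The mean log2 ratio of the well-fed males was 1.36 ± 0.39 and that of the underfed males 1.83 ± 0.20 (SD, n = 8 each), a difference of 0.47 (SE 0.15), or 1.38-fold (two-sided exact permutation test over 12870 arrangements, p = 0.000932, adjusted over 2 ratios p = 0.00186). oar-miR-221 was therefore higher relative to candidate-miR-26 in underfed males on average, while the ranges of the 2 diets overlapped.

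This difference kept its direction and passed the test with each of the 16 males left out in turn. Leaving out well-fed 8, the male with the lowest ratio, left a difference of 0.34 (exact permutation p = 0.00280), and with the 13 deeper libraries it was 0.47 (exact permutation p = 0.00991). The pair was chosen with earlier results of these data known. Only 2 ratios were compared, so whether other pairs of miRNAs differ as much between the diets was not tested.

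The ratio of oar-miR-21 to oar-miR-221 did not separate the diets. It ran from 6.74 to 14.7 with a median of 7.98 in well-fed males, and from 2.31 to 23.7 with a median of 8.64 in underfed males. The underfed males thus held both the lowest and the highest values of all 16. The mean log2 ratio of the well-fed males was 3.15 ± 0.40 and that of the underfed males 3.04 ± 1.03 (SD, n = 8 each), a difference of -0.11 (SE 0.39, two-sided exact permutation p = 0.789). The lowest ratio was that of underfed 1, which had the lowest level of oar-miR-21. On the deposited CPM that male also had the highest underfed level of oar-miR-221, while with TMM underfed 6 had the highest.

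**Figure D3:**
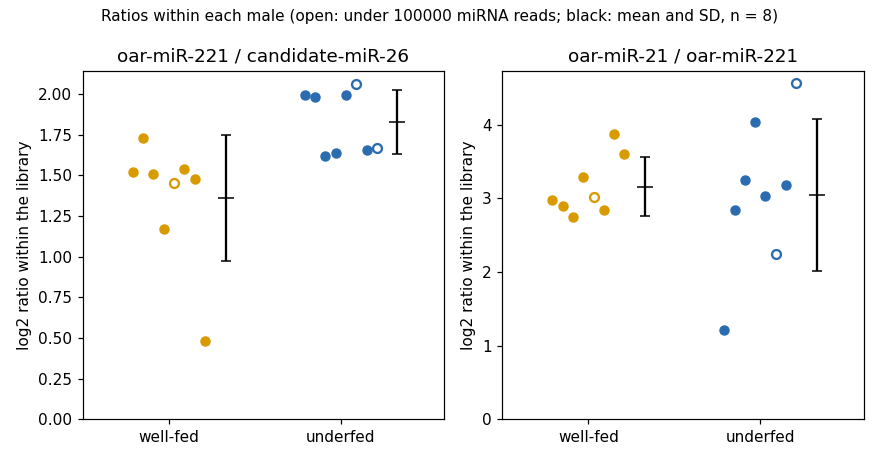
log2 ratio within each library (vertical axes, from 0) of oar-miR-221 to candidate-miR-26 and of oar-miR-21 to oar-miR-221; each point is 1 male, open points are libraries under 100000 miRNA reads, and the black bars are the mean and SD (n = 8). All 8 underfed males lie above the well-fed median of the first ratio, and in the second the underfed males span the well-fed range and lie beyond it on both sides.

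Since miR-221 and miR-222 share a primary transcript in mammals, the TMM-scaled log2 levels of oar-miR-221 and candidate-miR-26 were compared across males. The clusters of neighbouring miRNAs that the study lists include neither of them. Whether these 2 come from 1 transcript in sheep was not tested. Over all 16 males Pearson's r was 0.55 (permutation p = 0.0316, adjusted over 9 correlations p = 0.142) and Spearman's rho was 0.41 (permutation p = 0.118, adjusted p = 0.308). Without the 2 males farthest from the median of oar-miR-221, underfed 8 and underfed 6, r was 0.13. It was also 0.13 without underfed 8 alone (permutation p = 0.637) and 0.57 without underfed 6 alone (permutation p = 0.0325). The relation over all 16 males therefore rests on underfed 8. Within the diets, r was 0.24 in the 8 well-fed males (exact permutation p = 0.567, adjusted p = 0.729), with a rho of 0.24 (exact permutation p = 0.582, adjusted p = 0.748). In the 8 underfed males r was 0.91 (exact permutation p = 0.00692, adjusted p = 0.0623) and rho was 0.81 (exact permutation p = 0.0218, adjusted p = 0.0980). Without the 2 farthest males of each diet, r was -0.26 for the well-fed and 0.69 for the underfed diet. Over the 13 deeper libraries r was 0.070 (permutation p = 0.822). With all 16 males it was 0.70 both without TMM (permutation p = 0.00256) and as deviations from the diet means (permutation p = 0.00379), these p-values not being adjusted. The 9 correlations also covered oar-miR-21 with each of these miRNAs. The highest of those was with candidate-miR-26 in the well-fed males. There rho was 0.88 (exact permutation p = 0.00724, adjusted p = 0.0652) and r was 0.62 (exact permutation p = 0.0962, adjusted p = 0.289). In the underfed males the rho of that pair was 0.02. A high value within 1 diet was thus not particular to oar-miR-221 and candidate-miR-26. None of the 9 correlations on TMM-scaled levels passed after adjustment.

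**Figure D4:**
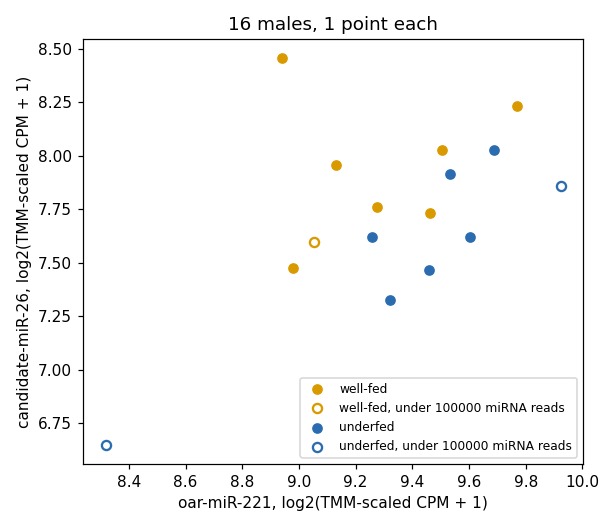
TMM-scaled level of oar-miR-221 (horizontal axis) against candidate-miR-26 (vertical axis), both as log2(CPM + 1), with 1 point per male; open points are libraries under 100000 miRNA reads. A shallow underfed library stands apart at the lower left, and without it r falls from 0.55 to 0.13.

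The miRNAs whose level was most like that of a member were taken as the 3 with the highest Spearman rho over the 16 libraries, among 125 others with a mean of at least 100 CPM, after the diet means were removed. This is a description, and the libraries share their depth and scaling with both miRNAs of each pair. For oar-miR-21 they were oar-miR-19b (rho 0.94) and candidate-miR-93, paired with miR-20a (rho 0.90), both of which belong to the miR-17-92 family of growth-promoting miRNAs, and candidate-miR-117, paired with miR-135 (rho 0.84). The median rho of oar-miR-21 with the 125 miRNAs was 0.16. In the 13 deeper libraries the 3 values were 0.918, 0.868 and 0.912.

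For oar-miR-221 the likeness was weaker. Its nearest were oar-let-7i, a member of the let-7 family that accumulates with differentiation (rho 0.68), oar-miR-10b, which lies in a Hox gene cluster in mammals (rho 0.66), and candidate-miR-174, paired with the leucocyte miRNA miR-155 (rho 0.66). For candidate-miR-26 they were oar-miR-107 (rho 0.74), candidate-miR-57, paired with miR-532 (rho 0.66), and oar-miR-103, which differs little in sequence from miR-107 (rho 0.62), so reads of that pair may be shared. Among the 3 themselves, none was among the nearest of another, and the values changed with depth. Between oar-miR-21 and oar-miR-221 rho was 0.12 over the 16 libraries and 0.40 over the 13 deeper ones. It was 0.43 and 0.74 between oar-miR-21 and candidate-miR-26, and 0.54 and 0.34 between oar-miR-221 and candidate-miR-26.

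The members belong to a wider list of 22 miRNA names known from undifferentiated spermatogonia, among them the miR-17-92 and miR-106b-25 clusters, of which 19 were listed and tested. None of the 19 passed an FDR of 0.05 with limma or with voom, and 2 had an unadjusted p under 0.05, beside 25.8% of all tested miRNAs. Over all tested miRNAs, 15 of 244 (6.15%) passed the FDR, 9 higher and 6 lower in underfed males. The list's median log2 fold change was 0.01, with 10 members above 0 and 9 below, beside -0.08 for all tested miRNAs. Its lowest value was that of oar-miR-106a at -0.73 (SE 0.74, limma FDR 0.543) and its highest that of candidate-miR-171, paired with miR-19a, at 0.62 (SE 0.83, limma FDR 0.632). Without TMM its median was -0.46 and 5 of 19 passed the FDR, beside a median of -0.51 and 39 of 244 (16%) over all tested miRNAs. In the joint fit its median was 0.92 and 7 of 19 passed, beside 0.89 and 89 of 210 (42.4%).

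The cells that share the tubule with spermatogonia were followed by miRNAs known from them, in a list chosen with earlier results of these data known. Of 4 miRNAs of the miR-34 and miR-449 families, known from meiotic and post-meiotic germ cells, 2 were lower in underfed males, beside 6 of all 244 (2.46%): candidate-miR-31, paired with miR-34c, with a log2 fold change of -0.90 (SE 0.22), and candidate-miR-161, paired with miR-449a, with -0.78 (SE 0.19), each with a limma FDR of 0.0256. All 4 were below 0, beside 129 of all 244, and their median was -0.79, beside -0.08 for all tested miRNAs. candidate-miR-162, paired with miR-34, was the nearest to 0 at -0.06 (SE 0.89, limma FDR 0.970). The calls depended on single males: without well-fed 2, or without well-fed 8, no miRNA was lower at a limma FDR under 0.05. That includes candidate-miR-31 and candidate-miR-161. With voom on all 16 libraries, 3 of the 4 passed the FDR, beside 47 of 244 (19.3%). candidate-miR-31 was abundant, at 44970 ± 8046 CPM under the well-fed diet and 19776 ± 12441 CPM under the underfed one (SD, n = 8 each), as testis tissue is known to be rich in miR-34c. The summed level of the 4 ran from 47551 to 71118 CPM in well-fed males and from 10999 to 58195 CPM in underfed males. In the joint fit none of the 4 passed the FDR, beside 42.4% of all tested miRNAs, and their median was 0.16, below the 0.89 of all.

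miR-21 is also known from leucocytes and miR-221 from smooth muscle and vessels, so both cell types were looked at. Of 6 names known from leucocytes and red cells, 4 were listed, and none passed an FDR of 0.05 or had an unadjusted p under 0.05 with limma, nor passed it with voom. Their median log2 fold change was 0.18, their lowest that of candidate-miR-132, paired with the red cell miRNA miR-486, at -0.20, and their highest that of candidate-miR-60, paired with miR-142, at 0.26. Their summed level ran from 3617 to 10045 CPM in the well-fed males and from 2894 to 9649 CPM in the others. Of 6 names known from smooth muscle and peritubular cells, 5 were listed, all with a log2 fold change above 0, beside 47.1% of all tested miRNAs, and a median of 0.62. None passed the FDR with limma, and 2 had an unadjusted p under 0.05, beside 25.8% of all tested miRNAs. With voom 2 of the 5 passed the FDR, beside 47 of 244 (19.3%). The lowest of these was oar-miR-133 at 0.51 and the highest candidate-miR-157, paired with miR-1c, at 0.91. The summed level of the 5 ran from 154466 to 211658 CPM in the well-fed males and from 139444 to 216032 CPM in the others. The part of these cell types in the members' levels was not tested.

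**Figure D5:**
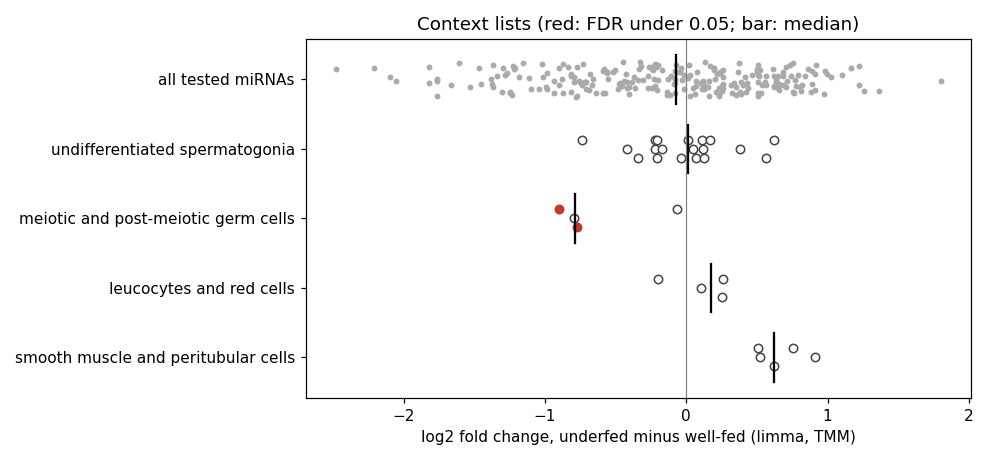
log2 fold change (horizontal axis, underfed minus well-fed, limma with TMM) of all 244 tested miRNAs in grey and of 4 lists of cell type miRNAs as circles; red circles passed an FDR of 0.05 and black bars are medians. The spermatogonial list lies around 0 with a median of 0.01, and 2 miRNAs of the meiotic and post-meiotic list are red and lie below 0. All 4 lists were chosen with earlier results of these data known.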

How the data were processed

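The authors made 1 TruSeq small RNA library per male, demultiplexed 50-base HiSeq reads with CASAVA 1.8, trimmed adapters, removed Rfam matches, counted reads of 18 to 25 nt on miRBase release 20 and predicted precursors, mapped piRNA reads of 26 to 32 nt to OAR3.1 with Bowtie 1.0.1, and tested counts with edgeR. The deposited values are CPM, each class (271 miRNAs and 4996 piRNAs) divided by its own total and stacked in 1 column per library. Dividing miRNA values by the value of 1 read gave reads whole within 0.1 for 93.7% to 99.0% of low values.

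Because the values are CPM, log2(scaled CPM + 1) was tested with limma 3.58.1 (R 4.3.3, empirical Bayes with trend) over the 244 miRNAs with CPM over 5 in at least 8 of 16 libraries. TMM factors came from an own implementation on recovered reads. Permutation tests of ratios and correlations came from an own implementation, with 100000 resamples where exact permutation was not possible. Ranks, Wilson intervals and the rho of the most alike miRNAs used scipy 1.17.1. Diets and replicate numbers came from the sample labels. The limma and voom fits were tested on simulated data, and the permutation tests on fixed inputs with a known answer. Same-numbered males of the 2 diets shared little of their deviation (mean r 0.0472, beside 0.00582 for different numbers, with 3 of 8 pairs over 0.1). The numbers were not treated as pairs. The named miRNAs were the 3 names, candidate-miR-26, the 3 most alike of each, and from each list those past FDR 0.05 and the highest and lowest. The members and lists were chosen with earlier results of these data known. Alternatives were voom, deeper libraries, other pseudocounts, unscaled CPM, all listed miRNAs, robust empirical Bayes, a fit joint with piRNAs, a replicate block, the class total as a term, deviations from the diet means, FDR alone and each male left out.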

Additional observations from a re-analysis of the deposited data

Results flagged for a closer look

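Of 10 groups of 8 males looked at (levels and ratios by diet), 3 held a male far from the others of its diet, where the gap to the nearest male exceeded the share of the range that Dixon's 95% critical value allows. Chance alone flags about 1 in 20 groups. oar-miR-21 was at 11544 CPM in well-fed 7, the next male being at 7463 CPM. candidate-miR-26 was at 440 CPM in well-fed 8, the next being at 329 CPM. In the same male the log2 ratio of oar-miR-221 to candidate-miR-26 was 0.48, the next lowest being 1.17.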

How the results depend on the processing

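The log2 fold change of oar-miR-21 turned below 0 without TMM (-0.46), with the log2 total of the class as a term (-0.055) and in the 13 deeper libraries (-0.069), and ran from -0.18 to 0.27 when each male was left out, being below 0 in 8 of 16 such fits. That of oar-miR-221 was -0.35 without TMM and 1.07 in the joint fit, where it passed the FDR, and ran from -0.00012 (without underfed 6) to 0.28 over the males left out. That of candidate-miR-26 was -0.82 without TMM, where it passed the FDR, and 0.60 in the joint fit, and ran from -0.47 to -0.21. The causes were not tested.

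The number of DE miRNAs, 8 as reported, was 36 without TMM, 18 with the class total, 26 with voom, 60 in the joint fit, 25 in the deeper libraries and 15 by FDR alone, and 0 to 22 when each male was left out. It was 0 without well-fed 2 or well-fed 8 (limma), where 57 and 50 miRNAs had an unadjusted p under 0.05, and 22 without underfed 1. The ratio of oar-miR-221 to candidate-miR-26 kept its direction and its side of the threshold in every alternative run, with a difference of 0.34 to 0.52 over the males left out. That of oar-miR-21 to oar-miR-221 ran from -0.33 to 0.15 and turned above 0 without underfed 1 (0.15) or underfed 6 (0.0025). The correlation of oar-miR-221 with candidate-miR-26 was 0.070 in the deeper libraries and ran from 0.13 without underfed 8 to 0.79 without well-fed 8, and it was 0.50 (permutation p = 0.0633) without well-fed 6.

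With replicate number as a block the log2 fold changes were 0.01, 0.12 and -0.34, 7 miRNAs were DE, and the differences of the log2 ratios were 0.47 and -0.11. The numbers are shared without a stated pairing, and the block changed no call on the members. Of the 16 males, 5 correlated best with their own number, a count that was not tested against chance. oar-miR-222 was not analysed here, so its planned fits were not run. Depth limits candidate-miR-26 most, which rested on 4 or 5 reads in each of the 3 shallow libraries.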
